A study of Mus musculus with 12 samples.

Results

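The 30 genes described here are expressed along the oligodendrocyte lineage, from the precursor cell to the cell that forms myelin, the lipid-rich sheath around axons. They were chosen by symbol from a count table of 78334 gene IDs, and all 30 were found and tested: 2 precursor genes (Pdgfra and Cspg4), 3 genes of the intermediate or newly formed cell (Gpr17, Bcas1 and Enpp6), 6 transcription factors (Olig1, Olig2, Sox10, Nkx2-2, Nkx6-2 and Myrf) and 19 genes of myelin and of the mature cell. Hypothalamic RNA of male C57BL/6 mice was sequenced in 12 libraries. The groups were mice with obesity given resveratrol (Ob + RSV, 2.25 mg/kg, 3 libraries), mice with obesity given aged garlic extract (Ob + EAE, 200 mg/kg, 2 libraries), mice with obesity given curcumin (Ob + CUR, 50 mg/kg, 1 library), mice with obesity given vehicle (Ob, 3 libraries) and control mice on standard chow given vehicle (C, 3 libraries). All received a daily gavage for 28 days from 16 weeks of age, and every group but C was fed a high-fat diet (HFD) with 60% of its calories from fat from 8 weeks of age. The sources differ on whether that diet lasted 8 weeks in all or went on during the gavage. The tissue is the whole dissected hypothalamus, so that fewer oligodendrocytes and less RNA in each of them cannot be told apart in these values.

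Oligodendrocyte precursors carry the receptor for platelet-derived growth factor AA, the product of Pdgfra, and the proteoglycan NG2, the product of Cspg4, and they remain in the adult brain, where some of them differentiate. Sox10 and Olig2 are needed through the lineage, whereas Myrf acts as the cells leave the precursor state and drives the genes of the myelin sheath. In the hypothalamus, precursors lie close to the median eminence, where new oligodendrocytes are formed in adult life. Pdgfra and Cspg4 are not restricted to this lineage, since perivascular fibroblasts are known to express the gene for the receptor and pericytes that for NG2.

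Sox10 and Myrf are among the 30 genes, and the words of sequence they are known to bind were looked for in the promoters of the others. A window from 250 bases before to 50 bases after a start of transcription was taken from RefSeq (build GRCm38.p6), which gave 27 windows for 22 of the 30 genes. Bcas1, Fa2h, Gpr17, Mbp, Myrf, Olig1, Sox10 and Trf had no entry. The words were ACAAAG, the core bound by SOX proteins, and CTGGCAC, bound by Myrf, each on both strands, and they do not overlap one another. Of 32851 windows of all genes, 18.7% held ACAAAG, 5.01% held CTGGCAC and 0.977% held both. Among the 27 windows, 6 windows of 5 genes held ACAAAG, 5 windows of 4 genes held CTGGCAC, and 4 windows of 3 genes, Cnp, Mag and Opalin, held both. Mag has 3 windows, of which an overlapping pair holds the same words and the other holds neither. The windows of these 3 myelin genes are shown beside that of Pdgfra, a precursor gene whose window holds neither word. The 3 were picked for holding both words, and no contrast between the promoters was tested. Capitals mark the words on either strand, and a match is a description of the letters alone.
Cnp, chr11:100574689-100574988, plus strand: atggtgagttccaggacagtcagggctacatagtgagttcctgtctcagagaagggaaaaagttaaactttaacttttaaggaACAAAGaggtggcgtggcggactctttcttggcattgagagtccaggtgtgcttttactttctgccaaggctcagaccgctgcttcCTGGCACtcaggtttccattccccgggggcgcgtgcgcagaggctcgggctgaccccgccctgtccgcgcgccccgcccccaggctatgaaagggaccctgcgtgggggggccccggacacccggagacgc
Mag, chr7:30914814-30915113, minus strand: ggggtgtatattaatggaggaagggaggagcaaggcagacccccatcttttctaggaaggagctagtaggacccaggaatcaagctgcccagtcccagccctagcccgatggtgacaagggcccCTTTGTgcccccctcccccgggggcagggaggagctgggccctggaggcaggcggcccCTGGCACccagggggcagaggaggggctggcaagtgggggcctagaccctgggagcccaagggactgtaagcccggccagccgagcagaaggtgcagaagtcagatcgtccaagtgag
Opalin, chr19:41077064-41077363, minus strand: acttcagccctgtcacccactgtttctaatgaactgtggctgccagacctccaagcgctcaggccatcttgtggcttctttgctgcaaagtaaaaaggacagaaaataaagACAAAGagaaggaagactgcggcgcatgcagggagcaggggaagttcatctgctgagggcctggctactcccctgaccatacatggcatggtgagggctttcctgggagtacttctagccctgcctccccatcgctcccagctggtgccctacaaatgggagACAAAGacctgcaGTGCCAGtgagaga
Pdgfra, chr5:75152001-75152300, plus strand: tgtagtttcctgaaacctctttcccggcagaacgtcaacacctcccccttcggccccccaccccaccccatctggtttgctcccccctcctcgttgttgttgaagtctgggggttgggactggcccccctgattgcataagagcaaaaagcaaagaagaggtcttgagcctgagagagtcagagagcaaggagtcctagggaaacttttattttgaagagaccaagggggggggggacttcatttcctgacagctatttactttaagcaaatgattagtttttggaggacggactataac

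Levels are given as CPM, the reads of a gene after the total of its library was scaled to 1000000, and changes as log2FC, the fitted log2 of the ratio of the groups, with its standard error (SE). A gene was past the threshold when its adjusted p was below 0.05 and its log2FC was 1 or more in size. Where single libraries are ranked or said to overlap by CPM, the TMM scaling used in the fits is not applied. Its factors ran from 0.937 in Ob replicate 1 to 1.03 in Ob + RSV replicate 2, so narrow separations can depend on it. Per kilobase of exon, Mbp had the highest mean level over the 12 libraries at 360.3 CPM, ahead of Mobp (147), Cnp (105), Olig1 (87.4) and Trf (78.8). The lowest were Cspg4 (2.67), Ninj2 (2.21) and Enpp6 (0.986), and Ninj2, a cell adhesion protein, rested on 13 to 59 reads in a library. Together the 30 genes took from 0.502% of the reads in Ob + CUR to 0.832% in Ob + RSV replicate 1.

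The libraries differed as wholes, which bears on every group of 3. C replicate 2, Ob replicate 1 and Ob + RSV replicate 2 stood apart in the number of genes detected, 24450 to 26123, against 28632 to 38081 in the other 9 libraries. C replicate 3 had the lowest level of 15 of the 30 genes after scaling, and Ob + RSV replicate 1 the highest of 9. In C replicate 3 the split ran within myelin itself, with Mobp and Bcas1 higher there than in any other library while Mag, Mal, Cnp, Cldn11, Mog, Gpr37, Fa2h and Trf were lower than anywhere else. The summed level of 10 astrocyte genes in that library was 1215 CPM, against 3701 and 3818 CPM in the other C libraries. Across the 30 genes, the deviation of a library from the mean correlated with the GC content of the transcripts at r = 0.80 in Ob replicate 2, -0.82 in Ob + RSV replicate 3 and 0.50 in Ob + RSV replicate 1, genes of a library being no independent replicates.

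**Figure D1:**
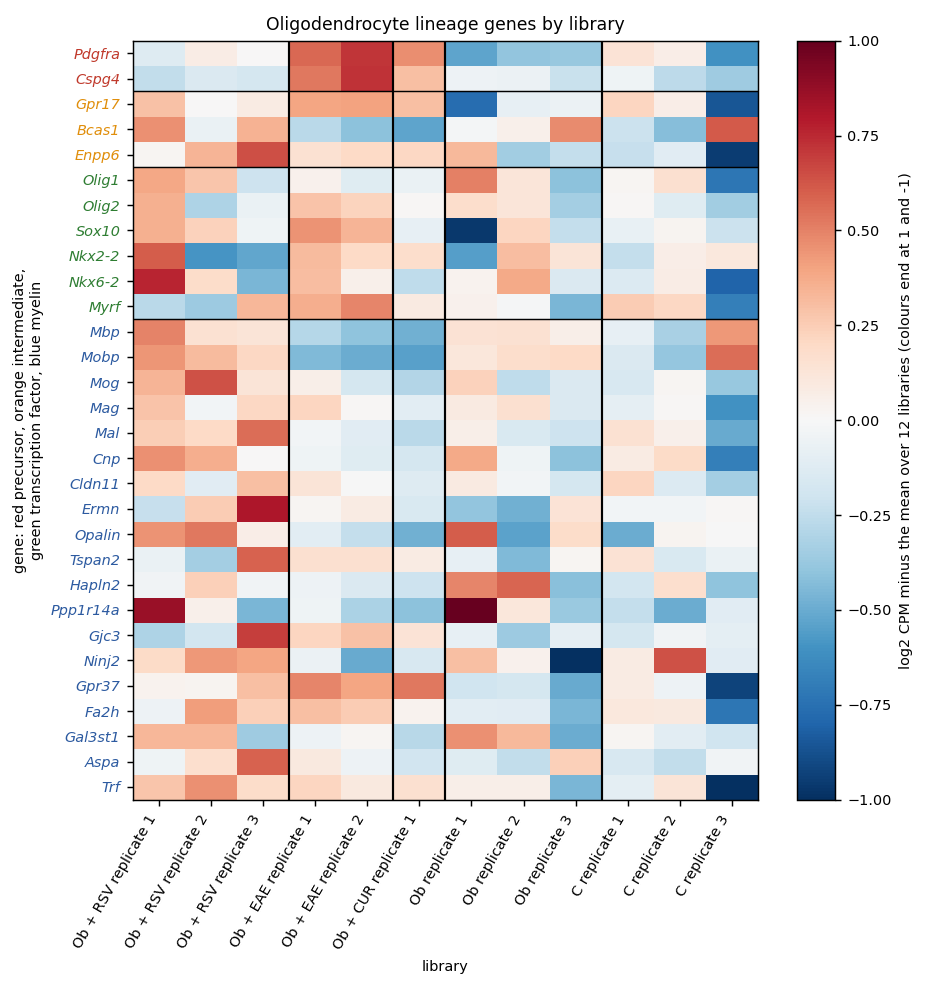
Levels of the 30 genes (down the page, coloured by role) in the 12 libraries (across, groups parted by black lines), as log2 CPM minus the mean of the gene over the 12 libraries, red for above and blue for below. The 2 precursor genes at the top are red in Ob + EAE and Ob + CUR, Mbp, Mobp and Bcas1 are blue there, and C replicate 3 is blue for most genes.

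Of the 30 genes, 1 passed the threshold in 1 of the 5 comparisons: Pdgfra rose in Ob + EAE relative to Ob. That comparison called 665 of 36164 genes, or 1.84%, and Ob + CUR vs. Ob called 60 genes, or 0.166%, with none of the 30 among them. In Ob + RSV vs. Ob, Ob + RSV vs. C and Ob vs. C, edgeR called 0 of 33534 genes (0%), DESeq2 also called 0, and 1059, 962 and 922 genes had an unadjusted p under 0.05 with edgeR.

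Among the precursor genes, Pdgfra had 50.1, 57.7 and 54.9 CPM in Ob + RSV, 81.4 and 89.8 CPM in Ob + EAE, 75.5 CPM in Ob + CUR, 38.0, 41.7 and 42.0 CPM in Ob, and 60.0, 57.4 and 35.9 CPM in C. Both Ob + EAE libraries and the Ob + CUR library lay above every other library, and the Ob + RSV libraries lay above all Ob libraries but within the range of C. Its log2FC was 0.38 (SE 0.22) in Ob + RSV vs. Ob, 0.086 (SE 0.22) in Ob + RSV vs. C, 1.01 (SE 0.22) in Ob + EAE vs. Ob, 0.83 (SE 0.27) in Ob + CUR vs. Ob and -0.30 (SE 0.22) in Ob vs. C. In Ob + EAE vs. Ob the adjusted p was 0.0156 by edgeR's quasi-likelihood test with Benjamini-Hochberg adjustment, and it ran from 0.000364 to 0.361 over 22 alternatives, in 14 of which Pdgfra passed the threshold. Without Ob + EAE replicate 1, Ob + EAE replicate 2 or Ob replicate 1 the same test gave adjusted p-values of 0.0834, 0.361 and 0.119, at log2FC of 1.09, 0.97 and 1.03.

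Cspg4 had 26.1, 28.1 and 27.5 CPM in Ob + RSV, 44.7 and 51.1 CPM in Ob + EAE, 38.2 CPM in Ob + CUR, 30.0, 29.8 and 26.6 CPM in Ob, and 30.2, 25.8 and 24.2 CPM in C. The Ob + EAE and Ob + CUR libraries again lay above the other 9, which spanned a narrow range. Its log2FC was -0.12 (SE 0.22) in Ob + RSV vs. Ob, 0.031 (SE 0.22) in Ob + RSV vs. C, 0.66 (SE 0.22) in Ob + EAE vs. Ob, 0.33 (SE 0.28) in Ob + CUR vs. Ob and 0.15 (SE 0.23) in Ob vs. C. In Ob + EAE vs. Ob the unadjusted p was 0.0059 and the adjusted p 0.117 by edgeR's quasi-likelihood test with Benjamini-Hochberg adjustment, short of the threshold.

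Gpr17, a receptor that marks cells about to differentiate, had 51.9, 42.6 and 44.7 CPM in Ob + RSV, 55.8 and 56.0 CPM in Ob + EAE, 52.2 CPM in Ob + CUR, 24.9, 39.9 and 40.8 CPM in Ob, and 49.3, 44.5 and 23.4 CPM in C. Ob + EAE and Ob + CUR were above every Ob library, as was Ob + RSV, and the lowest libraries were C replicate 3 and Ob replicate 1. The log2FC of Gpr17 was 0.37 (SE 0.25) in Ob + RSV vs. Ob, 0.25 (SE 0.25) in Ob + RSV vs. C, 0.60 (SE 0.26) in Ob + EAE vs. Ob, 0.51 (SE 0.33) in Ob + CUR vs. Ob and -0.12 (SE 0.25) in Ob vs. C. Bcas1, a protein of newly myelinating cells, went the other way, with 237, 165 and 220.1 CPM in Ob + RSV, 144 and 130.2 CPM in Ob + EAE, 119.9 CPM in Ob + CUR, 171, 179.8 and 239.7 CPM in Ob, and 149, 129 and 264 CPM in C. Its Ob + EAE and Ob + CUR libraries lay below every Ob library, at a log2FC of -0.58 (SE 0.26) and -0.78 (SE 0.34), with adjusted p-values of 0.294 and 0.415 by edgeR's quasi-likelihood test with Benjamini-Hochberg adjustment. Enpp6, a phosphodiesterase of the newly formed cell, was low throughout, with 6.20, 7.72 and 9.53 CPM in Ob + RSV, 6.77 and 7.01 CPM in Ob + EAE, 7.05 CPM in Ob + CUR, 7.63, 4.79 and 5.17 CPM in Ob, and 5.20, 5.63 and 3.16 CPM in C. Every Ob + RSV library exceeded every C library, at a log2FC of 0.74 (SE 0.39) and an unadjusted p of 0.0656.

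**Figure D2:**
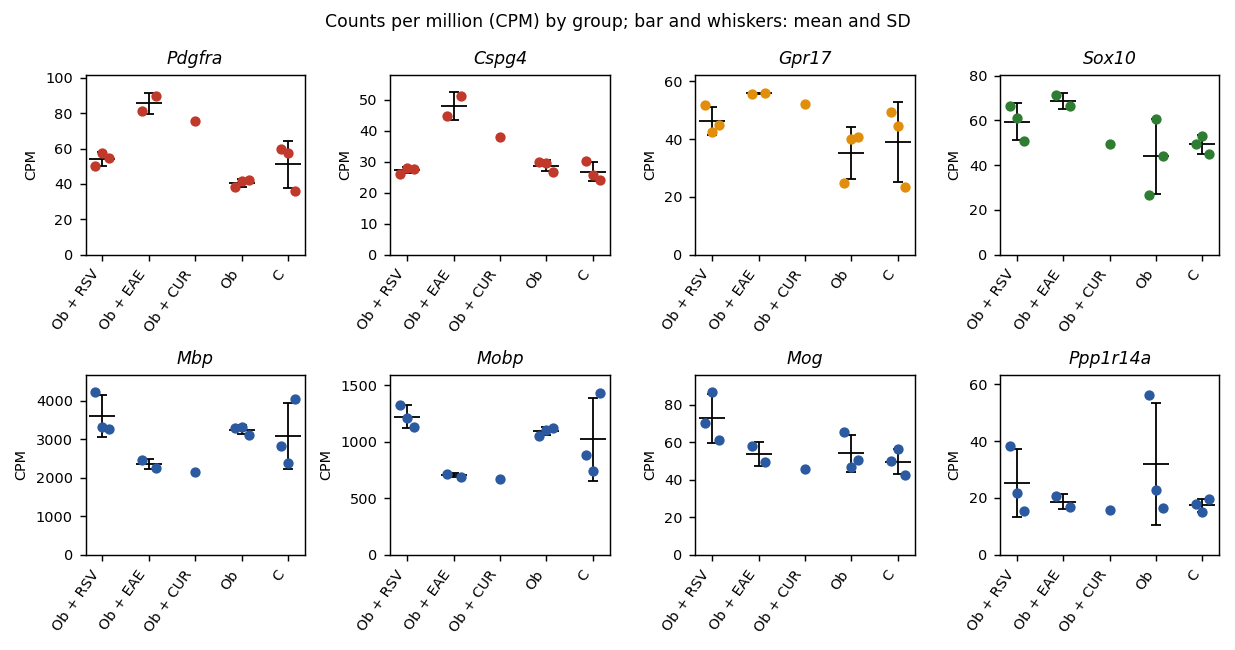
CPM of 8 of the genes in each library (points) by group, with the mean and SD (black) where a group has more than 1 library, coloured red for precursor, orange for intermediate, green for factor and blue for myelin genes. Pdgfra and Cspg4 are highest in Ob + EAE, where Mbp and Mobp are lower than in Ob. Ob and C overlap for all 8 genes, while Ob + RSV lies above Ob for Pdgfra, Gpr17 and Mobp and above C for Mog.

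Of the 6 factors, none passed the threshold in any comparison. Sox10 had 66.6, 61.1 and 50.7 CPM in Ob + RSV, 71.2 and 66.2 CPM in Ob + EAE, 49.4 CPM in Ob + CUR, 26.7, 60.7 and 44.2 CPM in Ob, and 49.6, 53.1 and 44.9 CPM in C. Both Ob + EAE libraries were above every Ob library, and Ob replicate 1 was far below all the others. The log2FC of Sox10 was 0.41 (SE 0.24) in Ob + RSV vs. Ob, 0.28 (SE 0.24) in Ob + RSV vs. C, 0.58 (SE 0.25) in Ob + EAE vs. Ob, 0.10 (SE 0.32) in Ob + CUR vs. Ob and -0.12 (SE 0.24) in Ob vs. C, with an unadjusted p of 0.0283 in Ob + EAE vs. Ob. Without Ob replicate 1 that log2FC was 0.37. Olig2 had 58.1, 36.7 and 43.4 CPM in Ob + RSV, 55.1 and 52.9 CPM in Ob + EAE, 45.7 CPM in Ob + CUR, 51.3, 49.2 and 35.8 CPM in Ob, and 45.7, 41.7 and 35.6 CPM in C. Both Ob + EAE libraries were just above the highest Ob library, and the log2FC of Olig2 was -0.017 (SE 0.23) in Ob + RSV vs. Ob, 0.18 (SE 0.23) in Ob + RSV vs. C, 0.17 (SE 0.24) in Ob + EAE vs. Ob, -0.071 (SE 0.31) in Ob + CUR vs. Ob and 0.20 (SE 0.23) in Ob vs. C.

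Myrf had 49.8, 46.5 and 75.5 CPM in Ob + RSV, 77.1 and 84.4 CPM in Ob + EAE, 63.9 CPM in Ob + CUR, 61.8, 59.6 and 43.8 CPM in Ob, and 71.7, 69.4 and 37.3 CPM in C. The Ob + EAE libraries were again above the Ob libraries, and C replicate 3 was the lowest of the 12. The log2FC of Myrf was 0.011 (SE 0.25) in Ob + RSV vs. Ob, -0.052 (SE 0.25) in Ob + RSV vs. C, 0.47 (SE 0.26) in Ob + EAE vs. Ob, 0.13 (SE 0.33) in Ob + CUR vs. Ob and -0.063 (SE 0.25) in Ob vs. C. Nkx6-2, a homeobox factor of the maturing cell, had 87.7, 58.8 and 37.6 CPM in Ob + RSV, 64.1 and 53.5 CPM in Ob + EAE, 43.3 CPM in Ob + CUR, 53.1, 67.2 and 46.8 CPM in Ob, and 46.9, 54.4 and 29.7 CPM in C. Ob + RSV alone spanned most of the range of all 12 libraries, and the smallest unadjusted p-values of Nkx6-2 were 0.0663 in Ob + RSV vs. C at a log2FC of 0.51 (SE 0.27), 0.144 for Ob against C at 0.40 (SE 0.27) and 0.25 in Ob + CUR vs. Ob at -0.44 (SE 0.38). Olig1 and Nkx2-2, the remaining factors, had log2FC from -0.27 to 0.31 in the 5 comparisons.

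Of the structural myelin proteins, Mbp, myelin basic protein, had 4219, 3314 and 3269 CPM in Ob + RSV, 2452 and 2259.7 CPM in Ob + EAE, 2141 CPM in Ob + CUR, 3303, 3313 and 3113 CPM in Ob, and 2812, 2382 and 4041 CPM in C. The Ob + EAE and Ob + CUR libraries lay below every Ob library, while C ran over most of the range. Its log2FC was 0.12 (SE 0.25) in Ob + RSV vs. Ob, 0.24 (SE 0.25) in Ob + RSV vs. C, -0.53 (SE 0.26) in Ob + EAE vs. Ob, -0.67 (SE 0.34) in Ob + CUR vs. Ob and 0.12 (SE 0.25) in Ob vs. C, with an adjusted p of 0.384 in Ob + EAE vs. Ob by edgeR's quasi-likelihood test with Benjamini-Hochberg adjustment. Mobp, a small basic protein of the same compact myelin, had 1324, 1213 and 1127 CPM in Ob + RSV, 717 and 690.4 CPM in Ob + EAE, 667 CPM in Ob + CUR, 1053, 1101 and 1120.3 CPM in Ob, and 883, 743 and 1433 CPM in C. It moved with Mbp in the Ob + EAE and Ob + CUR libraries, below every other library. The log2FC of Mobp was 0.13 (SE 0.24) in Ob + RSV vs. Ob, 0.27 (SE 0.24) in Ob + RSV vs. C, -0.70 (SE 0.25) in Ob + EAE vs. Ob, -0.78 (SE 0.33) in Ob + CUR vs. Ob and 0.14 (SE 0.24) in Ob vs. C, with adjusted p-values of 0.153 in Ob + EAE vs. Ob and 0.393 in Ob + CUR vs. Ob by edgeR's quasi-likelihood test with Benjamini-Hochberg adjustment.

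Mog, a glycoprotein of the outer surface of myelin, had 70.5, 86.7 and 61.0 CPM in Ob + RSV, 58.2 and 49.3 CPM in Ob + EAE, 45.6 CPM in Ob + CUR, 65.3, 46.8 and 50.4 CPM in Ob, and 49.8, 56.4 and 42.8 CPM in C. Every Ob + RSV library was above every C library, and Ob overlapped both. Its log2FC was 0.38 (SE 0.22) in Ob + RSV vs. Ob, 0.55 (SE 0.22) in Ob + RSV vs. C, -0.088 (SE 0.23) in Ob + EAE vs. Ob, -0.32 (SE 0.29) in Ob + CUR vs. Ob and 0.17 (SE 0.22) in Ob vs. C, with an unadjusted p of 0.0157 in Ob + RSV vs. C. Mag, the glycoprotein at the inner face of the sheath, had 204, 164 and 193 CPM in Ob + RSV, 194 and 169 CPM in Ob + EAE, 155 CPM in Ob + CUR, 178, 187 and 151 CPM in Ob, and 157, 169 and 109.7 CPM in C. The ranges of Ob + RSV, Ob and C overlapped, C replicate 3 was the lowest, and the log2FC of Mag was 0.083 (SE 0.22) in Ob + RSV vs. Ob, 0.37 (SE 0.22) in Ob + RSV vs. C, 0.00080 (SE 0.23) in Ob + EAE vs. Ob, -0.22 (SE 0.29) in Ob + CUR vs. Ob and 0.29 (SE 0.22) in Ob vs. C. Mal, a lipid raft protein of myelin, had 194, 188 and 239.9 CPM in Ob + RSV, 160.3 and 151 CPM in Ob + EAE, 135 CPM in Ob + CUR, 169.8, 147 and 141 CPM in Ob, and 181, 169 and 115 CPM in C. The Ob + RSV libraries were above all Ob and all C libraries, and the log2FC of Mal was 0.40 (SE 0.22) in Ob + RSV vs. Ob, 0.42 (SE 0.22) in Ob + RSV vs. C, -0.049 (SE 0.22) in Ob + EAE vs. Ob, -0.25 (SE 0.29) in Ob + CUR vs. Ob and 0.022 (SE 0.22) in Ob vs. C, with unadjusted p-values of 0.0616 relative to C and 0.0757 relative to Ob.

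Cnp, an enzyme of the cytoplasmic channels of myelin, had 515, 482 and 376 CPM in Ob + RSV, 365 and 344 CPM in Ob + EAE, 332 CPM in Ob + CUR, 487, 365 and 282 CPM in Ob, and 396, 428 and 234 CPM in C. C replicate 3 was the lowest and Ob + RSV replicate 1 the highest, and the ranges of Ob + RSV, Ob and C overlapped. The log2FC of Cnp was 0.23 (SE 0.25) in Ob + RSV vs. Ob, 0.38 (SE 0.25) in Ob + RSV vs. C, -0.18 (SE 0.27) in Ob + EAE vs. Ob, -0.27 (SE 0.34) in Ob + CUR vs. Ob and 0.15 (SE 0.25) in Ob vs. C. Opalin, a membrane protein of mature oligodendrocytes, had 33.6, 35.6 and 25.8 CPM in Ob + RSV, 23.0 and 20.9 CPM in Ob + EAE, 17.7 CPM in Ob + CUR, 37.5, 17.0 and 27.9 CPM in Ob, and 17.5, 25.1 and 24.6 CPM in C. All Ob + RSV libraries exceeded all C libraries at a log2FC of 0.51 (SE 0.26), whereas Ob overlapped both. Ermn, an actin-binding protein of the outer layer of myelin, had 41.0, 57.3 and 83.8 CPM in Ob + RSV, 48.6 and 50.9 CPM in Ob + EAE, 43.1 CPM in Ob + CUR, 36.6, 34.5 and 52.7 CPM in Ob, and 47.0, 47.0 and 48.4 CPM in C. Ob + RSV replicate 3 stood above all others, and in Ob + RSV vs. Ob the log2FC was 0.52 (SE 0.23) with an unadjusted p of 0.0311, the smallest of the 30 genes there. Leaving out single libraries gave a log2FC of Ermn from 0.22 to 0.73.

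Trf, the iron carrier transferrin, which oligodendrocytes make in the brain, had 307, 348 and 288 CPM in Ob + RSV, 294 and 271 CPM in Ob + EAE, 283 CPM in Ob + CUR, 264, 264 and 185 CPM in Ob, and 237, 277 and 121 CPM in C. Each Ob + RSV library was above each Ob and each C library. The log2FC of Trf was 0.58 (SE 0.25) relative to C, with an unadjusted p of 0.0277, and 0.36 (SE 0.25) relative to Ob. Without C replicate 3, whose level of Trf was the lowest of all, the log2FC in Ob + RSV vs. C was 0.29.

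Gpr37, a receptor of differentiating and mature oligodendrocytes, had 68.3, 67.8 and 82.0 CPM in Ob + RSV, 93.6 and 87.7 CPM in Ob + EAE, 96.1 CPM in Ob + CUR, 58.0, 58.9 and 46.9 CPM in Ob, and 70.6, 64.3 and 35.1 CPM in C. The Ob + EAE and Ob + CUR libraries were the highest of the 12. Its log2FC was 0.65 (SE 0.24) in Ob + EAE vs. Ob and 0.74 (SE 0.30) in Ob + CUR vs. Ob, with adjusted p-values of 0.173 and 0.356 by edgeR's quasi-likelihood test with Benjamini-Hochberg adjustment. Ppp1r14a, an inhibitor of myosin phosphatase found in mature oligodendrocytes and in smooth muscle, had 38.4, 21.9 and 15.4 CPM in Ob + RSV, 20.5 and 16.9 CPM in Ob + EAE, 15.9 CPM in Ob + CUR, 56.3, 22.9 and 16.4 CPM in Ob, and 17.9, 15.0 and 19.5 CPM in C. A single library, Ob replicate 1, set the level of Ob, and Ob + RSV replicate 1 was the next. The log2FC of Ppp1r14a was -0.86 (SE 0.39) in Ob + EAE vs. Ob, -1.09 (SE 0.51) in Ob + CUR vs. Ob and, for Ob relative to C, 0.93 (SE 0.35). Without Ob replicate 1 these were -0.084, -0.32 and 0.20.

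Hapln2, a link protein at the nodes of Ranvier, had 38.9, 47.1 and 39.0 CPM in Ob + RSV, 38.6 and 36.1 CPM in Ob + EAE, 34.5 CPM in Ob + CUR, 56.0, 59.7 and 29.9 CPM in Ob, and 35.2, 44.8 and 30.2 CPM in C. Ob replicates 1 and 2 were the highest libraries whereas Ob replicate 3 was the lowest, and the comparison of Ob with C gave 0.46 (SE 0.25) on the log2 scale. Cldn11, the tight junction protein of myelin, Tspan2, a tetraspanin, Gjc3, a connexin, Ninj2, Fa2h and Gal3st1, enzymes of myelin lipids, and Aspa, which releases acetate from N-acetylaspartate, had no unadjusted p under 0.05 in any comparison. Their log2FC ran from -0.52 to 0.44.

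**Figure D3:**
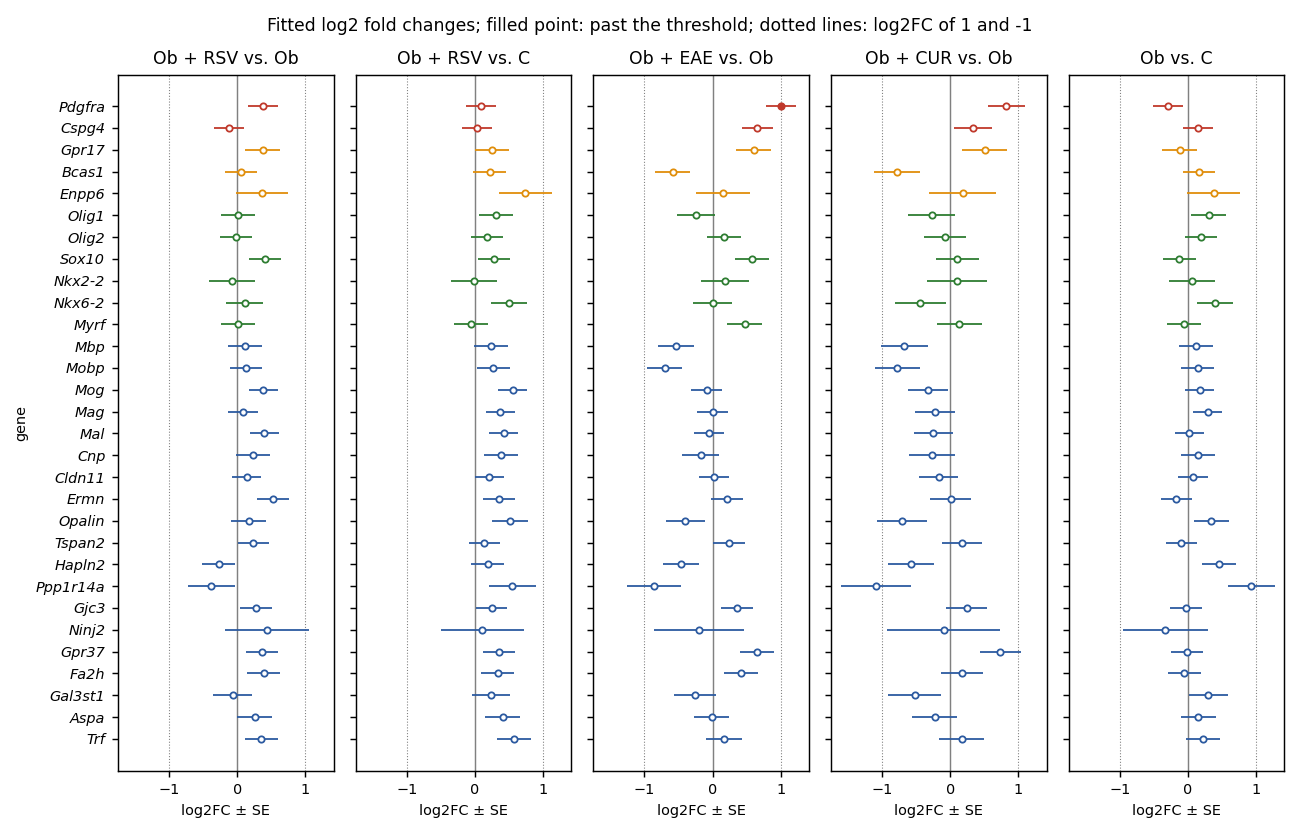
Fitted log2FC with its SE (across) for each of the 30 genes (down the page) in the 5 comparisons, coloured as in the plot of CPM by group, filled where the gene passed the threshold. Pdgfra in Ob + EAE vs. Ob is the 1 filled point, and in Ob + RSV vs. C 28 of the 30 points lie right of 0.

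After resveratrol, in Ob + RSV relative to Ob, 24 of the 30 genes had a log2FC above 0, against 48.1% of the 15503 genes with at least 500 reads over the 12 libraries, and none passed the threshold. Of the 19 myelin genes 16 were above 0, with a median of 0.23, and of the 6 factors 4, with a median of 0.0099. The levels of 7 genes (Pdgfra, Gpr17, Mobp, Mal, Gpr37, Fa2h and Trf) were higher in every Ob + RSV library than in every Ob library, and those of 0 genes were lower in every one. Over all genes tested, 2.94% were higher and 3.75% lower in that way, and 3.89% and 3.27% over the genes with at least 500 reads. For Mobp and Gpr17 the separation did not hold once CPM was divided by the TMM factors. The share of log2FC above 0 over all genes was 49.6%. Without Ob + RSV replicate 1, 19 genes had a log2FC above 0 and the median over the 30 genes was 0.10, against 0.20 with it, and without Ob replicate 3 they were 20 and 0.13. Without the 3 libraries that stood apart they were 27 and 0.33. The log2FC of the 30 genes correlated with the GC content of their transcripts at r = -0.57, and with the trend of each library on GC content removed 28 genes were above 0, with a median of 0.20 for the myelin genes and 0.22 for the factors. The 30 genes were measured in the same libraries, so that they do not count as separate observations. An unadjusted p under 0.05 was reached by 1 of the 30 genes, by 3.16% of all genes and by 2.79% of those with at least 500 reads. Marker genes of some other cells lay to one side too, whereas others were mixed. Of 10 microglial genes 5 had a log2FC above 0 (median 0.0060), of 10 astrocyte genes 6 (median 0.28) and of 8 fibroblast genes 3 (median -0.22). Of 12 neuronal genes 11 had a log2FC above 0 (median 0.20), with a summed level of 4419 to 5893 CPM in Ob + RSV and 4004 to 4839 CPM in Ob. Of 10 endothelial genes 0 were above 0 (median -0.35), with 141 to 157 CPM in Ob + RSV and 152 to 236 CPM in Ob, and of 10 pericyte and smooth muscle genes 0 (median -0.31), with 131 to 147 CPM in Ob + RSV and 146 to 190 CPM in Ob. None of these genes passed the threshold, and their part in the values of the 30 genes was not tested.

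Relative to C, 28 of the 30 genes had a log2FC above 0 in Ob + RSV, Myrf and Nkx2-2 being the exceptions, against 49.2% of all genes and 48.2% of the genes with at least 500 reads. All 19 myelin genes were above 0, with log2FC from 0.11 to 0.58 and a median of 0.36. Enpp6, Mog, Mal, Opalin and Trf were higher in every Ob + RSV library than in every C library, and 0 genes were lower, where all genes gave 2.05% and 3.38% and the genes with at least 500 reads 1.93% and 3.08%. For Mal the separation did not hold once CPM was divided by the TMM factors. An unadjusted p under 0.05 was reached by 2 of the 30 genes, by 2.87% of all genes and by 1.92% of those with at least 500 reads. Without C replicate 3 the number above 0 was 25 and the median over the 30 genes 0.19, against 0.28 with it, and without C replicate 2, Ob replicate 1 and Ob + RSV replicate 2, the 3 libraries that stood apart, they were 30 and 0.37. With the trend of each library on GC content removed, they were 29 and 0.29. Without Ob + RSV replicate 1 they were 28 and 0.17. Some lists of marker genes of other cells and of the thalamus, which borders the hypothalamus, had medians further from 0 than that of the 30 genes. Others were nearer 0, with medians of 0.10 for neuronal, 0.12 for astrocyte, -0.059 for microglial and 0.026 for endothelial genes. Those of the pericyte and smooth muscle genes and of the hypothalamic genes, 0.075 and -0.21, were nearer 0 too. Again none of the marker genes was past the threshold. Of 8 thalamic genes 0 had a log2FC above 0 (median -0.81), with a summed level of 525 to 730 CPM in Ob + RSV and 705 to 987 CPM in C. Of 8 ependymal genes 0 were above 0 (median -0.55), with 43.7 to 52.2 CPM in Ob + RSV and 76.1 to 85.2 CPM in C, and of 8 fibroblast genes 1 (median -1.09), with 24.8 to 29.5 CPM in Ob + RSV and 28.7 to 67.9 CPM in C. The part of these tissues in the values of the 30 genes was not tested. Both comparisons share the Ob + RSV libraries.

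With obesity, in Ob relative to C, 20 of the 30 genes had a log2FC above 0, against 48.8% of all genes and 49.5% of the genes with at least 500 reads, with a median of 0.15. The ranges of Ob and C overlapped for all 30 genes, where 3.42% of all genes were higher and 4.21% lower in every Ob library, and 3.3% and 4.86% of those with at least 500 reads. Leaving out C replicate 2, C replicate 3 or Ob replicate 1 gave medians of 0.084, 0.070 and 0.072, with 20, 16 and 18 genes above 0. An unadjusted p under 0.05 was reached by 1 of the 30 genes, by 2.75% of all genes and by 4.32% of those with at least 500 reads. That gene was Ppp1r14a, with an unadjusted p of 0.0115 and an adjusted p of 1 by edgeR's quasi-likelihood test with Benjamini-Hochberg adjustment, and its difference rested on Ob replicate 1. The SE of the 30 log2FC was from 0.21 to 0.62, and a call also asked for a log2FC of at least 1. Of the markers, 10 of 10 endothelial genes had a log2FC above 0 (median 0.27) and 1 of 8 thalamic genes (median -0.80). Medians were -0.69 for choroid plexus, -0.52 for fibroblast, -0.42 for ependymal and 0.40 for pericyte and smooth muscle genes. They were -0.27 for Schwann cell, 0.21 for hypothalamic, -0.15 for astrocyte, -0.039 for neuronal and -0.016 for microglial genes. The part of these cells and tissues in the values of the 30 genes was not tested.

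After aged garlic extract, in Ob + EAE relative to Ob, Pdgfra rose past the threshold. The levels of Cspg4 were higher and those of Mbp and Mobp lower in both Ob + EAE libraries than in every Ob library without passing it, whereas of the other abundant genes Cnp overlapped and Trf was higher. A log2FC above 0 was fitted for 16 of the 30 genes, against 52% of all genes and 48.5% of those with at least 500 reads. An adjusted p under 0.05, with no minimum on the log2FC, was reached by 1 of the 30 genes and 2.38% of all genes. The levels of 11 genes were higher in both Ob + EAE libraries than in every Ob library, namely Pdgfra, Cspg4, Gpr17, Olig2, Sox10, Myrf, Tspan2, Gjc3, Gpr37, Fa2h and Trf. Those of Bcas1, Mbp and Mobp were lower. Over all genes, 24.9% were higher and 13.7% lower in that way, and 31.2% and 24.4% over the genes with at least 500 reads, so that 11 and 3 of 30 (36.7% and 10%) were close to the background in the first direction and under it in the second. For Olig2 and Trf the separation did not hold once CPM was divided by the TMM factors. An unadjusted p under 0.05 was reached by 8 of the 30 genes (26.7%), against 28.2% of the genes with at least 500 reads and 13.4% of all genes.

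Transcript length moved with this comparison. Over 16878 genes, the mean deviation of the third with the longest exons minus that of the third with the shortest was 0.25 and 0.42 on the log2 scale in Ob + EAE and 0.36 in Ob + CUR, against -0.48, -0.19 and -0.089 in Ob. Pdgfra and Cspg4 are among the longest of the 30 genes, with 10024 and 11931 bases of exon, and across the 30 genes the log2FC correlated with the log2 of the length at r = 0.45. Of the 10 longest genes 7 had a log2FC above 0 (median 0.36) and of the 10 shortest 2 (median -0.14). With the trend of each library on length removed, the log2FC of Pdgfra was 0.61 (adjusted p = 0.192, edgeR's quasi-likelihood test with Benjamini-Hochberg adjustment), that of Cspg4 0.18, that of Mobp -0.92 and that of Mbp -0.86, and 23 genes were called in all. The difference of Pdgfra thus fell under the threshold with that trend removed and those of Mobp and Mbp became larger in size. Length here is the union of all exons of a gene, 8469 bases for Mbp and 6849 for Mobp. Both were thus corrected as long genes, whatever the length of their main transcripts.

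**Figure D4:**
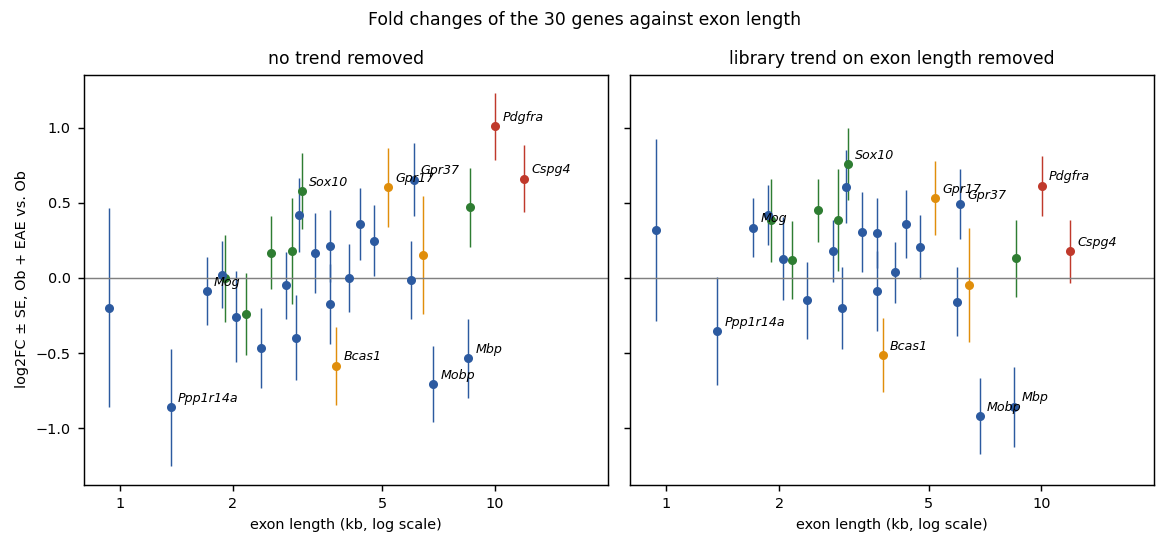
Fitted log2FC with its SE for the 30 genes in Ob + EAE vs. Ob (up) against exon length in kilobases on a log scale (across), as fitted (left) and with the trend of each library on exon length removed (right), coloured as in the plot of CPM by group. Pdgfra is at 1.01 on the left and at 0.61 on the right, and Mobp at -0.70 and -0.92.

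Markers of other cells moved too. The summed level of 10 endothelial genes was 339.7 to 349.1 CPM in Ob + EAE and 375.7 CPM in Ob + CUR, against 151.9 to 236.1 CPM in Ob, and 6 of the 10 were past the threshold in Ob + EAE vs. Ob. That of 10 pericyte and smooth muscle genes was 221.4 to 221.8 CPM in Ob + EAE and 246.7 CPM in Ob + CUR, against 145.6 to 190.1 CPM in Ob. In Ob + EAE vs. Ob, 7 of these 10 had a log2FC above 0 and 3 below (median 0.48), with 0 past the threshold. Only Rgs5, a pericyte gene, had an adjusted p under 0.05 there (0.0259 by edgeR's quasi-likelihood test with Benjamini-Hochberg adjustment), at a log2FC of 0.90. The summed level of 8 fibroblast genes was 38.0 to 38.3 CPM in Ob + EAE and 43.9 CPM in Ob + CUR, against 26.4 to 40.4 CPM in Ob, so that Ob + CUR was above every Ob library. In Ob + EAE vs. Ob, 3 of these 8 had a log2FC above 0 (median -0.062). The sum of 8 ependymal genes was 33.6 to 38.1 CPM in Ob + EAE and 27.4 CPM in Ob + CUR, against 37.4 to 114.6 CPM in Ob, and 0 of the 8 had a log2FC above 0 in either comparison, with a median of -1.26 after garlic extract and -2.18 after curcumin. In Ob + EAE vs. Ob, 4 of 10 microglial genes were above 0 (median -0.34), and 1 ependymal and 1 microglial gene fell past the threshold. The sum of 12 hypothalamic genes was 1037 to 1234 CPM in Ob + EAE and 434.5 CPM in Ob + CUR, against 1478 to 3086 CPM in Ob. In Ob + EAE vs. Ob, 2 of these 12 had a log2FC above 0 (median -0.63) and 1 fell past the threshold. In Ob + CUR vs. Ob, 5 were above 0 and 7 below (median -1.20). Among them, Oxt had 4.04 and Avp 8.42 CPM in Ob + CUR, against 362 to 734 and 566 to 1464 CPM in Ob. The part of these cells in the levels of Pdgfra and Cspg4 was not tested. The labels give no date or run for the libraries, and whether the Ob + EAE and Ob + CUR libraries were handled apart from the others cannot be told apart from their treatment.

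After curcumin, in the single Ob + CUR library, 9 of the 30 genes were above every Ob library (Pdgfra, Cspg4, Gpr17, Myrf, Tspan2, Gjc3, Gpr37, Fa2h and Trf) and 7 below (Bcas1, Nkx6-2, Mbp, Mobp, Mog, Mal and Ppp1r14a), where all genes gave 33.8% and 17.7% and those with at least 500 reads 38.1% and 28.5%. Once CPM was divided by the TMM factors, Myrf and Trf were no longer above every Ob library. A log2FC above 0 was fitted for 13 of the 30 genes, against 50% of all genes and 50.2% of those with at least 500 reads. None passed the threshold, and 5 of the 30 genes had an unadjusted p under 0.05, against 9.66% of all genes and 20.9% of those with at least 500 reads. The smallest p was that of Pdgfra, at a log2FC of 0.83 (SE 0.27) and an adjusted p of 0.201 by edgeR's quasi-likelihood test with Benjamini-Hochberg adjustment, in a fit that takes the lone library to vary like the other groups. Both comparisons with Ob share the Ob libraries. Doses and group sizes of the 3 agents differ, and no test between agents was made.

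Further genes of the lineage were counted from 2 lists, 40 of myelin and the oligodendrocyte and 18 of the precursor. In Ob + EAE vs. Ob, 18 of the 40 had a log2FC above 0 and 1 passed the threshold, Plekhh1 (log2FC 1.25, SE 0.29), and 12 of the 18 precursor genes were above 0 and 2 passed it, the extracellular matrix protein Tnr (1.16, SE 0.25) and the receptor phosphatase Ptprz1 (1.02, SE 0.28). All genes gave 52% above 0 and 1.84% past the threshold. With the trend on length removed, the log2FC of Plekhh1 was 1.05, that of Tnr 0.68 and that of Ptprz1 0.48, none of them past the threshold. In Ob + CUR vs. Ob, 18 of the 40 and 9 of the 18 were above 0 and none passed the threshold. In Ob + RSV vs. Ob, 30 of the 40 myelin genes and 9 of the 18 precursor genes were above 0, in Ob + RSV vs. C 33 and 6, and in Ob vs. C 23 and 7, with none past the threshold in these 3. All genes gave 48.8% to 50% above 0 in these 4 comparisons.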

How the data were processed

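The deposited table holds whole read counts per gene, which the authors made from stranded poly(A) libraries with featureCounts v1.5.0-p3 after the reads had been aligned by HISAT2 v2.0.5. The submitters' processing notes name GRCm39. For the annotation release and the strand setting, nothing is given in the sources used here. Gene IDs were matched to symbols for 51486 of 78334 IDs, with 98.1% of the counts. Total counts per library ran from 15655156 to 26284661. The 12 samples were grouped by their labels, with 3 separate mice stated per main group, and no pair of replicates had identical counts. Over genes with at least 20 reads in every library, the mean squared difference of the Ob + EAE pair was 8.43 times that of counting noise. In the pairs of the other groups it was 27.9 to 100.5 times. Whether the Ob + EAE pair came from separate mice was not established, and the call of Pdgfra rests on that pair and the Ob libraries. The p-values cover the spread between libraries, pooled over the groups of a fit.

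Genes with at least 10 reads in total were tested with edgeR 4.0.16 (TMM scaling, glmQLFit and glmQLFTest, R 4.3.3), in 1 fit of 9 libraries for C, Ob and Ob + RSV (6 residual degrees of freedom) and 1 of 12 libraries for Ob + EAE and Ob + CUR (7 residual degrees of freedom), with group as the factor and p-values adjusted over all genes. The SE was taken as the absolute log2FC over the root of the F statistic. The procedure was also run on counts simulated for Ob vs. C. It called 14 of 50 genes changed by a log2FC of 1 in size, 39 of 50 at 2, and 45 of 50 at 3 and at 4, with 3 false calls. Changes near the threshold were thus mostly missed. Exon length (the union of exons) and GC content (of the longest transcript) were read from GENCODE vM21, so a gene with many isoforms counts as long. No positions in GRCm39 are printed. Figures were drawn with matplotlib 3.10.9.

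Alternatives were RLE and upper quartile scaling, filterByExpr, no filter beyond 1 read, DESeq2 1.42.0, a replicate block, another set of libraries, no minimum on log2FC, and leaving out each library or the 3 that stand apart. Fits with the trend of each library on GC content or exon length removed, the background of genes with at least 500 reads, the grouping of genes by exon length, the pericyte and fibroblast lists and the naming of Bcas1 were added after seeing the data. The genes and lists were chosen with earlier results of these data known. Named genes were the 3 myelin genes, the factor and the precursor or intermediate gene with the smallest p in each comparison, and 12 known markers of the lineage.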

Additional observations from a re-analysis of the deposited data

How the results depend on the processing

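The number of genes called was 35, 11, 32, 1031 and 810 without a filter beyond 1 read in Ob vs. C, Ob + RSV vs. Ob, Ob + RSV vs. C, Ob + EAE vs. Ob and Ob + CUR vs. Ob. With a replicate block it was 50, 10, 35, 1417 and 1716. For C, Ob and Ob + RSV, the deviations of log2 CPM from the mean of the own group were correlated across genes between libraries of different groups. Those of same-numbered libraries correlated at -0.026 to 0.33 (9 pairs, median 0.062) and those of others at -0.31 to 0.15 (18 pairs, median -0.014). What the replicate numbers stand for was not tested, and the highest value was of a same-numbered pair, Ob replicate 3 and Ob + RSV replicate 3. In Ob + EAE vs. Ob it was 77 with filterByExpr, 1 without the 3 libraries that stand apart and 23 with the length trend removed, and in Ob + CUR vs. Ob 5, 3 and 4 in these settings, 274 with DESeq2, 31 with another set of libraries and 7 with the GC trend removed. Of the 30 genes, 0 were called in Ob + EAE vs. Ob with filterByExpr, without the 3 libraries, with the replicate block and with the GC or length trend removed, where Pdgfra had a log2FC of 1.02, 1.00, 0.92, 0.94 and 0.61. With the replicate block 1 was called in Ob + CUR vs. Ob, Ppp1r14a (-1.51). Leaving out single libraries gave 0 to 11, 0 to 2, 0 to 3, 18 to 1172 and 10 to 453 genes called in the 5 comparisons, and 0 to 2 of the 30 genes in Ob + EAE vs. Ob, the second being Ppp1r14a (-1.17, without Ob replicate 3). The count was 18 without Ob replicate 1, 228 without Ob + EAE replicate 1, 19 without Ob + EAE replicate 2 and 1172 without Ob replicate 3. In Ob vs. C it was 11 without C replicate 3 and 6 without Ob replicate 3, and in Ob + CUR vs. Ob 10 without Ob replicate 1 and 453 without Ob replicate 3. The median log2FC of the 30 genes moved by more than the spread between libraries (0.16) in 1 case, Ob + EAE vs. Ob with the length trend removed (0.19). With the GC trend removed, the log2FC changed sign in Ob + RSV vs. Ob for Cspg4 (0.075) and Olig2 (0.16), in Ob + RSV vs. C for Myrf (0.0097), in Ob + CUR vs. Ob for Mag (0.024) and Olig2 (0.20), in Ob vs. C for Cspg4 (-0.0017). Without C replicate 2, Ob replicate 1 and Ob + RSV replicate 2, the log2FC changed sign in Ob + RSV vs. Ob for Olig2 (0.28), in Ob + RSV vs. C for Myrf (0.20), in Ob + EAE vs. Ob for Cnp (0.093), Mal (0.076) and Mog (0.12), in Ob + CUR vs. Ob for Olig2 (0.051) and Sox10 (-0.14), in Ob vs. C for Gpr17 (0.14), Mal (-0.040), Mbp (-0.078), Mobp (-0.045) and Sox10 (0.16). With the length trend removed, the log2FC changed sign in Ob + RSV vs. Ob for Myrf (-0.11) and Olig2 (0.074), in Ob + RSV vs. C for Myrf (0.010), in Ob + EAE vs. Ob for Mal (0.18) and Mog (0.33), in Ob + CUR vs. Ob for Cspg4 (-0.20), Mog (0.072), Myrf (-0.24) and Olig2 (0.19), in Ob vs. C for Mal (-0.080), Mog (-0.030) and Myrf (0.12). With the replicate block, the log2FC changed sign in Ob + RSV vs. C for Myrf (0.0059), in Ob + EAE vs. Ob for Mag (-0.097). With RLE scaling, the log2FC changed sign in Ob + EAE vs. Ob for Mag (-0.0058). With DESeq2, the log2FC changed sign in Ob + EAE vs. Ob for Mag (-0.0058). Leaving out each library in turn, the log2FC changed sign in Ob + RSV vs. Ob for Mag (-0.035 to 0.19), Mbp (-0.041 to 0.21), Myrf (-0.23 to 0.15) and Olig2 (-0.25 to 0.15), in Ob + RSV vs. C for Cspg4 (-0.047 to 0.15), Gpr17 (-0.016 to 0.49), Myrf (-0.31 to 0.13), Olig2 (-0.053 to 0.36) and Pdgfra (-0.12 to 0.25), in Ob + EAE vs. Ob for Cnp (-0.36 to 0.12), Mag (-0.11 to 0.13), Mal (-0.12 to 0.10) and Mog (-0.20 to 0.14), in Ob + CUR vs. Ob for Cnp (-0.47 to 0.022), Myrf (-0.046 to 0.29), Olig2 (-0.26 to 0.084) and Sox10 (-0.11 to 0.46) and in Ob vs. C for Cnp (-0.096 to 0.35), Gpr17 (-0.39 to 0.11), Mal (-0.16 to 0.18), Mbp (-0.040 to 0.35), Mobp (-0.046 to 0.45), Mog (-0.011 to 0.26), Myrf (-0.32 to 0.12) and Sox10 (-0.46 to 0.13), none of them past the threshold. Of 1502 values of single genes under the alternatives, 1415 kept their direction and their side of the threshold. The cause was not tested. Depth limits Ninj2, with 13 reads in its lowest library.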
